A study of Mus musculus with 16 samples.

Results

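The move of the spleen between day 2 and day 5 of imiquimod treatment was followed in 8 of the 16 RNA-seq libraries of a mouse series. The members were chosen by their labels, with no measured value: all libraries of day 5 and day 2 in both genotypes. They were 2 libraries of PKR knockout mice and 2 of wild-type C57BL/6 mice after 5 days of daily cream, and 2 libraries of each genotype after 2 days. PKR is the kinase that double-stranded RNA activates, and Eif2ak2 encodes it. All mice were male, and all 8 libraries came from mice that had 62.5 mg of 5% imiquimod cream on shaved back skin each day, so no group in this comparison was free of imiquimod. Each library pooled spleen cells of 2 mice, pressed through a 70-µm mesh and freed of red cells by lysis buffer, and p-values measure the spread between such pools. There was no group with cream alone. The day of sampling and the number of doses cannot be told apart. The labels say nothing more of how the knockout was made.

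Imiquimod is an agonist of Toll-like receptor 7, and repeated use on mouse skin is a common model of psoriasis that also enlarges the spleen. The mouse spleen filters blood with macrophages of the red pulp, holds B and T cell follicles, and turns to blood formation under stress. Early antibody responses run through short-lived plasma cells, whose secretory load is met by Xbp1 and the chaperones of the endoplasmic reticulum (ER). Erythroid precursors are driven by Gata1, Tal1 and Klf1 under erythropoietin, and fill with haem and globin as they mature.

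The sequences that go with the leading gene groups come first. The mature miR-451a, a microRNA of red cell precursors, is shown because its gene had no counts on day 2 and counts in every library on day 5. It lies at chr11:78073186-78073207 on the plus strand of GRCm38.p6, and the capitals mark its seed, bases 2 to 8.
mmu-miR-451a: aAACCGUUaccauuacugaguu
For 3 erythroid genes that were higher on day 5, the 250 bases before the RefSeq start are given from GRCm38.p6, each 5′ to 3′ on the strand of the gene. Capitals mark AGATAA or its reverse complement, the letters of a GATA factor site. Alas2 is the erythroid enzyme of the first step of haem synthesis, Epor the erythropoietin receptor and Epb42 a protein of the red cell membrane skeleton. The windows are chrX:150547167-150547416 on the plus strand for Alas2, chr9:21963577-21963826 on the minus strand for Epor and chr2:121036878-121037127 on the minus strand for Epb42.
Alas2: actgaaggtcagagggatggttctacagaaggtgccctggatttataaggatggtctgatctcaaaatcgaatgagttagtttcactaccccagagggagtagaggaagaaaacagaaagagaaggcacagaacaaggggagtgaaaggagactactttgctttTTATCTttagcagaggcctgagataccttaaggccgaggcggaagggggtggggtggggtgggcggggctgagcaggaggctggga
Epor: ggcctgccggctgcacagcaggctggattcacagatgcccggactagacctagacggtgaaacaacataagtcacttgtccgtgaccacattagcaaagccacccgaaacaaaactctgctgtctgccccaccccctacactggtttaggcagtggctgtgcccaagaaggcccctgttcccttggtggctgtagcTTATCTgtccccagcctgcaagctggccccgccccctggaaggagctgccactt
Epb42: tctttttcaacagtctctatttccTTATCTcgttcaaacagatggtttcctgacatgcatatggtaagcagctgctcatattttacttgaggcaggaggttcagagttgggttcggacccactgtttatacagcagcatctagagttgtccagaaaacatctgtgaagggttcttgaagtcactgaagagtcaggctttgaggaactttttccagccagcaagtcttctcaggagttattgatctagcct
These 3 were picked after the search because they held a match. The letters AGATAA, on either strand, were in 10 of the 48 erythroid promoters found (20.8%), in 6.33% of the 11004 promoters of tested genes and in 10.3% of all 27025 promoters. The CACCC letters bound by Klf1, searched as CCACNCCC on both strands, were in 11 of the same 48 (22.9%), near the 20.5% of the promoters of tested genes.
For 3 ER chaperone genes that were lower on day 5, the same windows are given with capitals on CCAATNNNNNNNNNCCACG or its reverse complement, the ER stress response element. Hspa5 encodes BiP, Hsp90b1 GRP94 and Pdia6 a protein disulphide isomerase, all folding helpers of the ER. The windows are chr2:34771840-34772089 on the plus strand for Hspa5, chr10:86705445-86705694 on the minus strand for Hsp90b1 and chr12:17266339-17266588 on the plus strand for Pdia6.
Hspa5: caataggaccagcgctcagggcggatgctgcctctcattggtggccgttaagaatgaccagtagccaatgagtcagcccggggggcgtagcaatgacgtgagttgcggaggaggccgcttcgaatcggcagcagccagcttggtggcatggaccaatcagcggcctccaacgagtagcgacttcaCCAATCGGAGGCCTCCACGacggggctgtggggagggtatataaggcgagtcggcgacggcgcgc
Hsp90b1: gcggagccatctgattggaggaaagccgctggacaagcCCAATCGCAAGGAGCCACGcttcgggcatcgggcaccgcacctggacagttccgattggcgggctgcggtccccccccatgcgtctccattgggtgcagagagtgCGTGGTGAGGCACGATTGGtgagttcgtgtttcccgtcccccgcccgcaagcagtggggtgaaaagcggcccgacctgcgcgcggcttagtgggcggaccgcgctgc
Pdia6: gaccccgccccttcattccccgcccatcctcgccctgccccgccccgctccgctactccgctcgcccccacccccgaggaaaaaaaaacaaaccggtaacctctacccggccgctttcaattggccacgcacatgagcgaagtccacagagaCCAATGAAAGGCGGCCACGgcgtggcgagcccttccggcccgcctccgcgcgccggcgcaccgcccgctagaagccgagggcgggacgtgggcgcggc
The element was in 7 of the 19 promoters found for the ER chaperone list (36.8%), against 0.164% of the promoters of tested genes. That list also takes in targets of the unfolded protein response to ER stress, so the share depends on how the list was made. The first base of the element lay 65 bases before the start in Hspa5, 98 in Pdia6, and 212 and 107 in Hsp90b1. The sterol response letters TCACNCCAC were in 1 of 15 promoters of cholesterol synthesis genes (6.67%), against 0.945%. A match of letters is a description and shows no binding.

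The 8 libraries held 35026754 to 51996700 fragments. Of 17831 genes with enough counts to test, 4281 (24%) were higher and 3916 (22%) lower on day 5 than on day 2 at an adjusted p under 0.05 in edgeR's quasi-likelihood test with genotype as covariate. By 2-fold or more, 1975 (11.1%) were higher and 1174 (6.58%) lower, and the median log2 change of all tested genes was -0.01. The first principal component held 94.1% of the variance of the 2000 most variable genes and placed the day 5 libraries at 38.0 to 54.9 and the day 2 libraries at -53.0 to -41.1. Of the tissue checks, the B cell gene Ms4a1 and the T cell gene Cd3e were detected in every library.

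Eif2ak2, the gene the knockout targets, had 15.3 and 18.2 CPM in knockout and 28.2 and 29.2 CPM in wild-type libraries on day 5, against 45.8 and 20.8 CPM in knockout and 31.5 and 41 CPM in wild-type libraries on day 2. Replicate 1 of the day 2 knockout was thus the highest of the 8, above both wild-type libraries of its day, while the other 3 knockout libraries were the lowest. The change of Eif2ak2 was -0.66 ± 0.28 (log2, SE; adjusted p = 0.0957), and -0.33 (adjusted p = 0.0205) without that library or adjusted p = 0.0445 without the other knockout library of day 2. Replicate 1 of the day 2 knockout was also the lowest of the 4 day 2 libraries for 44 of 64 erythroid genes, against 27.4% of all tested genes. Without it, 4153 genes (22.3%) were higher and 3810 (20.5%) lower of 18582 tested. Of the 8197 original calls 7378 were made again, and none with the opposite sign. Of the 2 libraries labelled day 2 knockout, 1 had an Eif2ak2 level near that of the other knockout libraries. Values without replicate 1 are given beside some of the results that it moves, and not beside all of them.

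**Figure D1:**
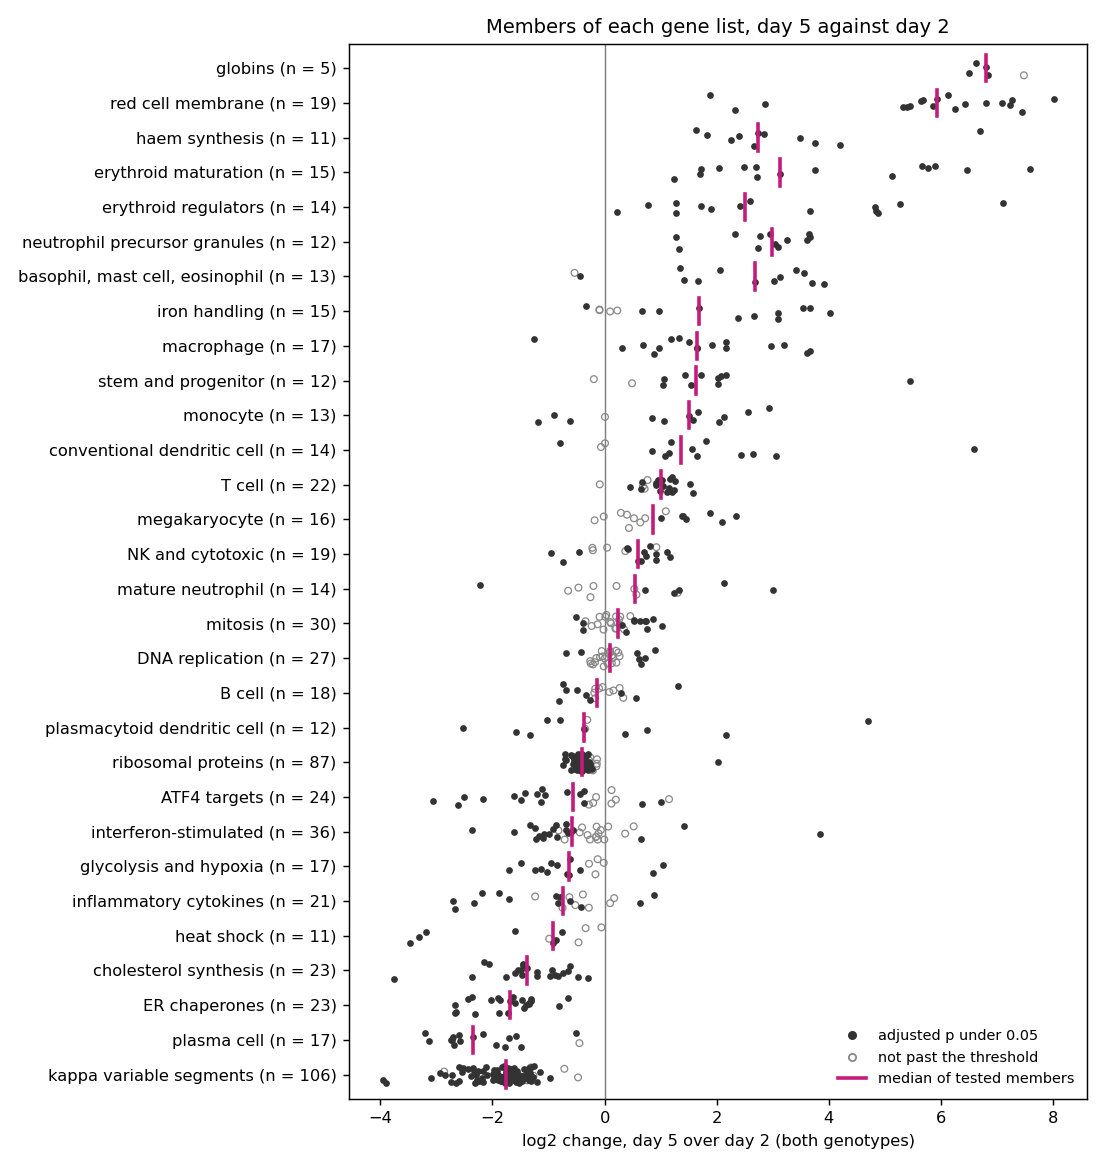
Log2 change between day 5 and day 2, both genotypes, for each tested member of 30 gene lists. Filled points passed an adjusted p of 0.05 and open points did not, and the bar is the median of a list. Red cell lists lie on the right, between medians of 2.51 and 6.81, and plasma cell, ER chaperone and cholesterol lists on the left, between -2.35 and -1.39.

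Red cell genes were higher on day 5, and among all lists tested the globin and red cell membrane lists had the highest medians. In 5 lists of erythroid regulators, membrane proteins, haem synthesis, globins and maturation genes, 63 of 64 tested members were higher on day 5 (all genes 24%). For all 64 the 4 day 5 libraries lay above the 4 day 2 libraries (all genes 23.1%). The lists were written with earlier results of these data known, so these shares are a description. The embryonic globin Hba-x had 0 counts on day 2, so it passed the filter on counts through day 5 alone. Without replicate 1 of the day 2 knockout the list medians were 6.33 for globins, against 6.81 with it, and 5.63 for membrane genes, against 5.93. Over all 64 the median log2 change was 4.83, over the members with enough counts to test. Most lists were tested in full. Of the listed genes 5 of 8 globins, 12 of 14 progenitor, 17 of 18 macrophage, 14 of 15 dendritic, 13 of 14 basophil, 12 of 13 endothelial, 16 of 20 stromal, 10 of 17 epithelial, 21 of 25 inflammatory, 7 of 14 psoriasis and 11 of 14 stress erythropoiesis genes were tested. Fewer cells of a type and less RNA per cell cannot be told apart in these bulk libraries, and the same holds for more cells or more RNA.

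Among the 14 regulators tested, all 14 were higher, with a median log2 change of 2.51. Gata1, the X-linked factor that sets the erythroid programme, had 58.3 and 41.6 CPM in day 5 knockout and 37.1 and 42.3 CPM in day 5 wild-type libraries, and 0.407 and 1.87 CPM in day 2 knockout and 2.02 and 1.98 CPM in day 2 wild-type libraries. The lowest day 5 library was at 37.1 CPM and the highest of day 2 at 2.02 CPM, a change of 4.82 ± 0.41 (log2, SE; adjusted p = 1.35e-04), and 4.46 without replicate 1 of the day 2 knockout. Klf1, the factor that opens the beta-globin locus, had 108 and 70.5 CPM in the knockout and 58.6 and 68 CPM in the wild type on day 5, against 0.815 and 2.86 CPM in the knockout and 3.28 and 3.29 CPM in the wild type on day 2. Its change was 4.88 ± 0.46 (log2, SE; adjusted p = 3.05e-04), and on day 5 the first knockout library stood above the other 3. Tal1, a partner of Gata1, had 116 and 86.8 CPM in knockout and 67.3 and 75.7 CPM in wild-type libraries on day 5, against 0.978 and 2.11 CPM in knockout and 2.86 and 2.9 CPM in wild-type libraries on day 2. Tal1 changed by 5.27 ± 0.37 (log2, SE; adjusted p = 4.37e-05). Sox6, which helps silence embryonic globins, had 147 and 114 CPM in day 5 knockout and 83 and 67.4 CPM in day 5 wild-type libraries, and 0.109 and 1.07 CPM in day 2 knockout and 0.73 and 0.863 CPM in day 2 wild-type libraries. That was the largest change among the regulators, 7.12 ± 0.47 (log2, SE; adjusted p = 4.14e-05), or 6.69 without replicate 1 of the day 2 knockout. Epor, which senses erythropoietin, had 41.3 and 33.1 CPM in the knockout and 23.5 and 23.6 CPM in the wild type on day 5, against 0.353 and 1.19 CPM in the knockout and 1.15 and 1.31 CPM in the wild type on day 2. It changed by 4.85 ± 0.35 (log2, SE; adjusted p = 2.31e-05), and no library of day 2 reached the lowest of day 5.

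All 19 genes of the red cell membrane and its skeleton were higher, with a median log2 change of 5.93. Slc4a1, the anion exchanger band 3 at chr11:102348824-102365280 of mm10, had 2137 and 1638 CPM in knockout and 1166 and 885 CPM in wild-type libraries on day 5, against 0.516 and 8.55 CPM in knockout and 5.08 and 7.28 CPM in wild-type libraries on day 2. Replicate 1 of the day 2 knockout was far under the other 3 of its day, and the change was 8.02 ± 0.94 (log2, SE; adjusted p = 0.00112), or 7.53 without it. Tmod1, which caps actin filaments, had 49 and 36.2 CPM in day 5 knockout and 27.2 and 21.7 CPM in day 5 wild-type libraries, and 0 and 0.249 CPM in day 2 knockout and 0.225 and 0.235 CPM in day 2 wild-type libraries. It had no counts in replicate 1 of the day 2 knockout, and its change of 7.45 ± 0.38 (log2, SE; adjusted p = 1.31e-06) became 6.97 without that library. Dmtn, dematin, had 165 and 118 CPM in the knockout and 90.8 and 71.5 CPM in the wild type on day 5, against 0.163 and 1.19 CPM in the knockout and 0.449 and 0.883 CPM in the wild type on day 2. Dmtn changed by 7.27 ± 0.46 (log2, SE; adjusted p = 3.37e-05), or 6.87 without that library. Epb42 had 192 and 147 CPM in knockout and 111 and 83.2 CPM in wild-type libraries on day 5, against 0.109 and 1.29 CPM in knockout and 0.898 and 1.02 CPM in wild-type libraries on day 2. Epb42 changed by 7.23 ± 0.53 (log2, SE; adjusted p = 1.00e-04), or 6.80 without it. In each of the 19 the 4 day 5 libraries lay above the 4 of day 2.

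Of 11 haem synthesis genes 11 were higher, with a median of 2.73. Alas2 had 327 and 276 CPM in day 5 knockout and 205 and 137 CPM in day 5 wild-type libraries, and 0.38 and 3.58 CPM in day 2 knockout and 1.91 and 2.71 CPM in day 2 wild-type libraries. Day 5 was higher by 6.70 ± 0.65 (log2, SE; adjusted p = 3.94e-04), and the order within day 5 was knockout above wild type. Fech, which puts iron into haem, was present before the rise, with 294 and 219 CPM in the knockout and 171 and 143 CPM in the wild type on day 5, against 11 and 10.3 CPM in the knockout and 10.9 and 11.3 CPM in the wild type on day 2. All 4 day 2 libraries lay between 10.3 and 11.3 CPM, and its change was 4.20 ± 0.18 (log2, SE; adjusted p = 5.10e-08). Abcb10, a mitochondrial transporter of haem synthesis, had 195 and 161 CPM in knockout and 121 and 102 CPM in wild-type libraries on day 5, against 9.21 and 9.5 CPM in knockout and 12.1 and 11.2 CPM in wild-type libraries on day 2. Abcb10 changed by 3.75 ± 0.21 (log2, SE; adjusted p = 1.30e-06). The days overlapped for none of the 11.

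Globin transcripts became a visible part of the whole RNA. They took 1.72% and 1.22% of all fragments in knockout libraries and 0.881% and 0.61% in wild-type libraries on day 5, against 0.00186% and 0.0162% in knockout and 0.00926% and 0.0127% in wild-type libraries on day 2. Hbb-bs had 5562 and 3870.2 CPM in day 5 knockout and 2641 and 1799 CPM in day 5 wild-type libraries, and 5.87 and 54.1 CPM in day 2 knockout and 29.2 and 42.5 CPM in day 2 wild-type libraries. Per length, this was the top red cell gene named, at a mean FPKM of 5504 on day 5 against 51.4 on day 2. Hbb-bt had 2939.6 and 2220.4 CPM in the knockout and 1534 and 1069.7 CPM in the wild type on day 5, against 3.1 and 25.4 CPM in the knockout and 14.8 and 22.4 CPM in the wild type on day 2. Hbb-bt changed by 6.81 ± 0.86 (log2, SE; adjusted p = 0.00151). Hba-a1 had 4437 and 3514 CPM in knockout and 2512 and 1524 CPM in wild-type libraries on day 5, against 4.32 and 41.1 CPM in knockout and 22.8 and 30.5 CPM in wild-type libraries on day 2. Hba-a1 changed by 6.84 ± 0.90 (log2, SE; adjusted p = 0.00177). The adult alpha genes are near copies of each other, and so are the adult beta genes. The split within each pair is thus uncertain, while the joint rise is not touched by it. Of 5 globins tested, 4 were called, and the embryonic Hba-x was not at an adjusted p of 0.0977. The 2 copies of theta globin are named by their fitted changes. A fitted change of a gene with 0 counts on day 2, such as Hbq1a, depends on the prior count, so it has no rank. Hbq1a had 2.13 and 1.81 CPM in day 5 knockout and 1.32 and 0.78 CPM in day 5 wild-type libraries, and 0 and 0 CPM in day 2 knockout and 0 and 0 CPM in day 2 wild-type libraries, which makes day 5 at least 20.2-fold higher where each day 2 library is set to 3 counts. Hbq1b had 32.5 and 21.1 CPM in the knockout and 16.7 and 7.02 CPM in the wild type on day 5, against 0 and 0.0497 CPM in the knockout and 0.0561 and 0.0588 CPM in the wild type on day 2. These 2 are near copies as well. With Hba-x, which had 0 counts on day 2, at its bound the median of the globin list was 6.62 in place of 6.81.

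**Figure D2:**
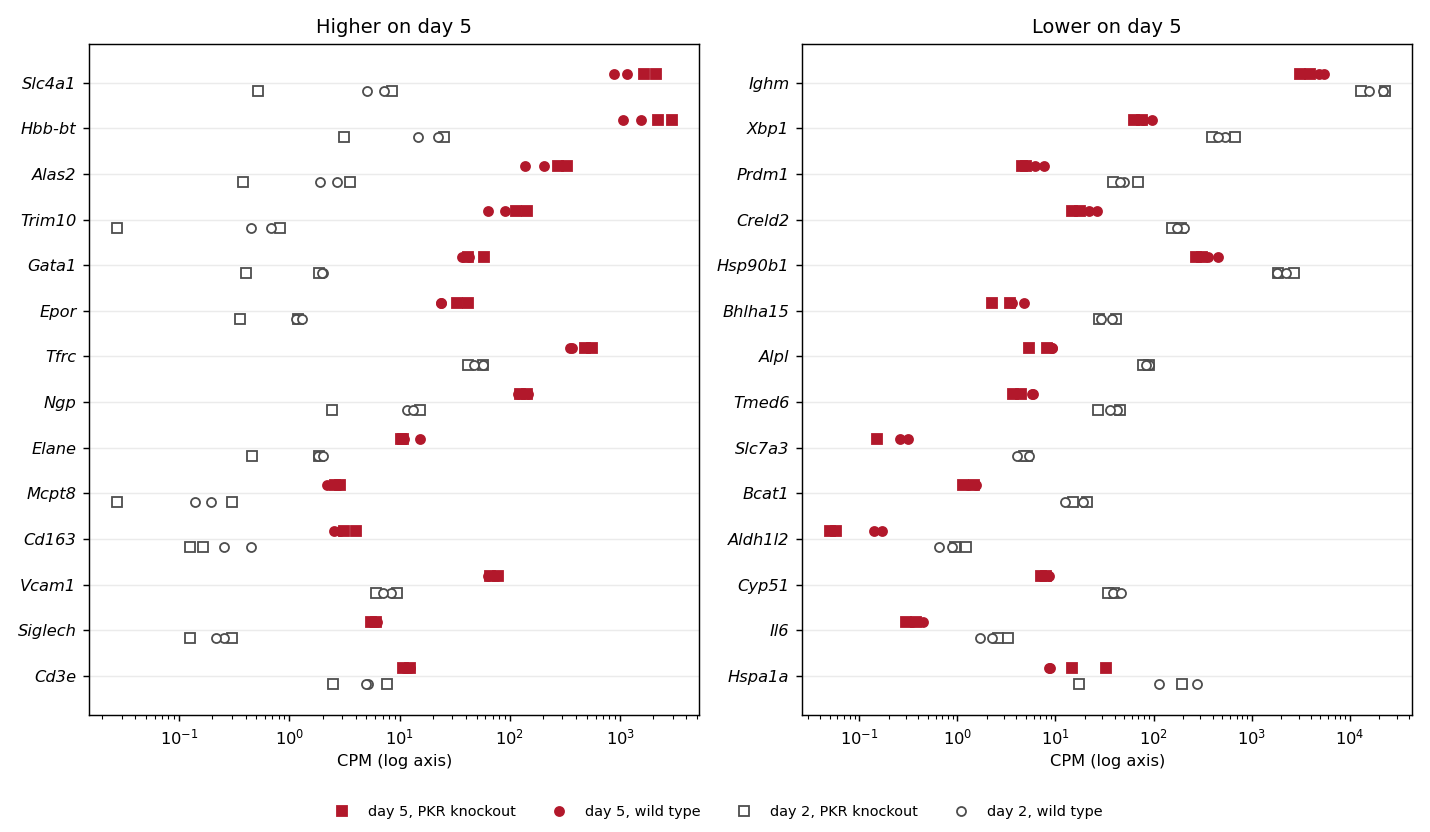
CPM on a log axis for 14 genes that were higher and 14 that were lower on day 5, with 1 point per library. Filled red marks are day 5 and open grey marks day 2, squares are PKR knockout and circles wild type, and the day 5 knockout library with 0 CPM of Slc7a3 is not drawn. The days do not overlap for any of the 14 higher genes or for 13 of the 14 lower ones, Hspa1a being the exception, and replicate 1 of the day 2 knockout is the low square of Slc4a1, Trim10, Gata1 and Ngp.

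Genes of erythroid maturation were all higher (15 of 15, median log2 change 3.14). Trim10, a TRIM protein of late erythroid cells, had 144 and 114 CPM in knockout and 90.5 and 62.8 CPM in wild-type libraries on day 5, against 0.0272 and 0.821 CPM in knockout and 0.449 and 0.686 CPM in wild-type libraries on day 2. Trim10 changed by 7.58 ± 0.51 (log2, SE; adjusted p = 5.92e-05), or 7.13 without replicate 1 of the day 2 knockout. Trim58, which helps shed the nucleus, had 22.5 and 19.1 CPM in day 5 knockout and 12.4 and 9.38 CPM in day 5 wild-type libraries, and 0 and 0.274 CPM in day 2 knockout and 0.112 and 0.255 CPM in day 2 wild-type libraries. Trim58 changed by 6.46 ± 0.39 (log2, SE; adjusted p = 2.32e-06). The precursor gene of miR-451a had 28 and 30 counts in knockout and 18 and 18 in wild-type libraries on day 5, and 0 counts in all 4 libraries of day 2. With 3 counts put in each day 2 library, the fold is at least 8.16. The same layout held for Bloodlinc, a long non-coding RNA of the red cell lineage, with 0.876 and 0.935 CPM in the knockout and 0.659 and 0.402 CPM in the wild type on day 5, against 0 and 0 CPM in the knockout and 0 and 0 CPM in the wild type on day 2 and a fold of at least 9.60.

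The other genes among the 12 largest fitted rises, a group that includes Hbq1a, Mir451a and Bloodlinc with 0 counts on day 2, were Slc2a4, Asb17os, Ccdc92b, Tac2, Nhlrc4 and Slfn14. Slc2a4, the glucose carrier GLUT4, had 16.1 and 12.1 CPM in knockout and 9.79 and 7.66 CPM in wild-type libraries on day 5, against 0 and 0 CPM in knockout and 0.0842 and 0.0588 CPM in wild-type libraries on day 2. Slc2a4 changed by 8.13 ± 0.37 (log2, SE; adjusted p = 2.04e-08). Slfn14, whose mutation in mice harms red cells, had 49.4 and 41 CPM in day 5 knockout and 32.4 and 19.4 CPM in day 5 wild-type libraries, and 0.0272 and 0.398 CPM in day 2 knockout and 0.0842 and 0.216 CPM in day 2 wild-type libraries. Slfn14 changed by 7.50 ± 0.39 (log2, SE; adjusted p = 2.00e-06). Tac2, which encodes the peptide neurokinin B, had 3.73 and 2.13 CPM in the knockout and 1 and 1.42 CPM in the wild type on day 5, against 0 and 0.0249 CPM in the knockout and 0 and 0 CPM in the wild type on day 2. Its 323 counts on day 5 against 1 on day 2 give a ratio of 336, with an exact 95% counting interval of 59.8 to 13300.0. Asb17os had 408 and 1 counts on day 5 and day 2, a ratio of 424 (95% interval 75.7 to 16780.0), and Nhlrc4 had 473 and 2, a ratio of 246 (67.7 to 2035). Such intervals cover counting error only. Ccdc92b changed by 7.92 ± 0.39 (log2, SE; adjusted p = 2.69e-08).

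Iron genes moved with the red cell genes: 10 of 15 were higher and 1 lower, with a median log2 change of 1.69. Tfrc, the transferrin receptor, had 555 and 482 CPM in knockout and 349 and 364 CPM in wild-type libraries on day 5, against 41.9 and 56.6 CPM in knockout and 47.1 and 56.6 CPM in wild-type libraries on day 2. No library of day 2 exceeded 56.6 CPM and none of day 5 fell under 349 CPM, and the change was 3.09 ± 0.15 (log2, SE; adjusted p = 3.15e-08). Slc25a37, mitoferrin, which brings iron into mitochondria, had 528 and 412 CPM in day 5 knockout and 282 and 219.9 CPM in day 5 wild-type libraries, and 18.6 and 23 CPM in day 2 knockout and 19.4 and 23 CPM in day 2 wild-type libraries. Slc25a37 changed by 4.03 ± 0.23 (log2, SE; adjusted p = 2.09e-06). Tfr2, which modulates the erythropoietin receptor, changed by 3.67, and Steap3, which reduces endosomal iron, by 3.53. The lower gene was Pcbp1, an iron chaperone, at -0.34 ± 0.11 (log2, SE; adjusted p = 0.0185); this call was lost without replicate 1 of the day 2 wild type, the day 5 wild type or the day 2 knockout, or replicate 2 of the day 5 knockout. Slc40a1, the iron exporter ferroportin, is treated with the macrophages below.

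Among genes tied to stress erythropoiesis, 3 of 11 were higher (27.3%, all genes 24%) and 4 lower (36.4%, all genes 22%). The lower count was 2 without replicate 1 of the day 2 knockout, replicate 2 of the day 2 wild type or replicate 1 of the day 5 knockout. Erfe, the erythroferrone that erythroblasts secrete to lower hepcidin, had 5.71 and 3.01 CPM in the knockout and 3.37 and 6.26 CPM in the wild type on day 5, against 0.0815 and 0.124 CPM in the knockout and 0.112 and 0.373 CPM in the wild type on day 2. Erfe changed by 4.63 ± 0.42 (log2, SE; adjusted p = 1.20e-05). Gdf15, another erythroid secreted factor, had 0.125 and 0.175 CPM in knockout and 0.0976 and 0 CPM in wild-type libraries on day 5, against 0.489 and 0.348 CPM in knockout and 0.168 and 0.255 CPM in wild-type libraries on day 2. Its libraries overlapped, and a lower call of -1.70 ± 0.52 (log2, SE; adjusted p = 0.0174) went to an adjusted p of 0.0534, 0.0628 and 0.0539 without those same libraries. Bmp4, the inducer of this programme in the spleen, had at most 5 counts in any library and was not tested.

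**Figure D3:**
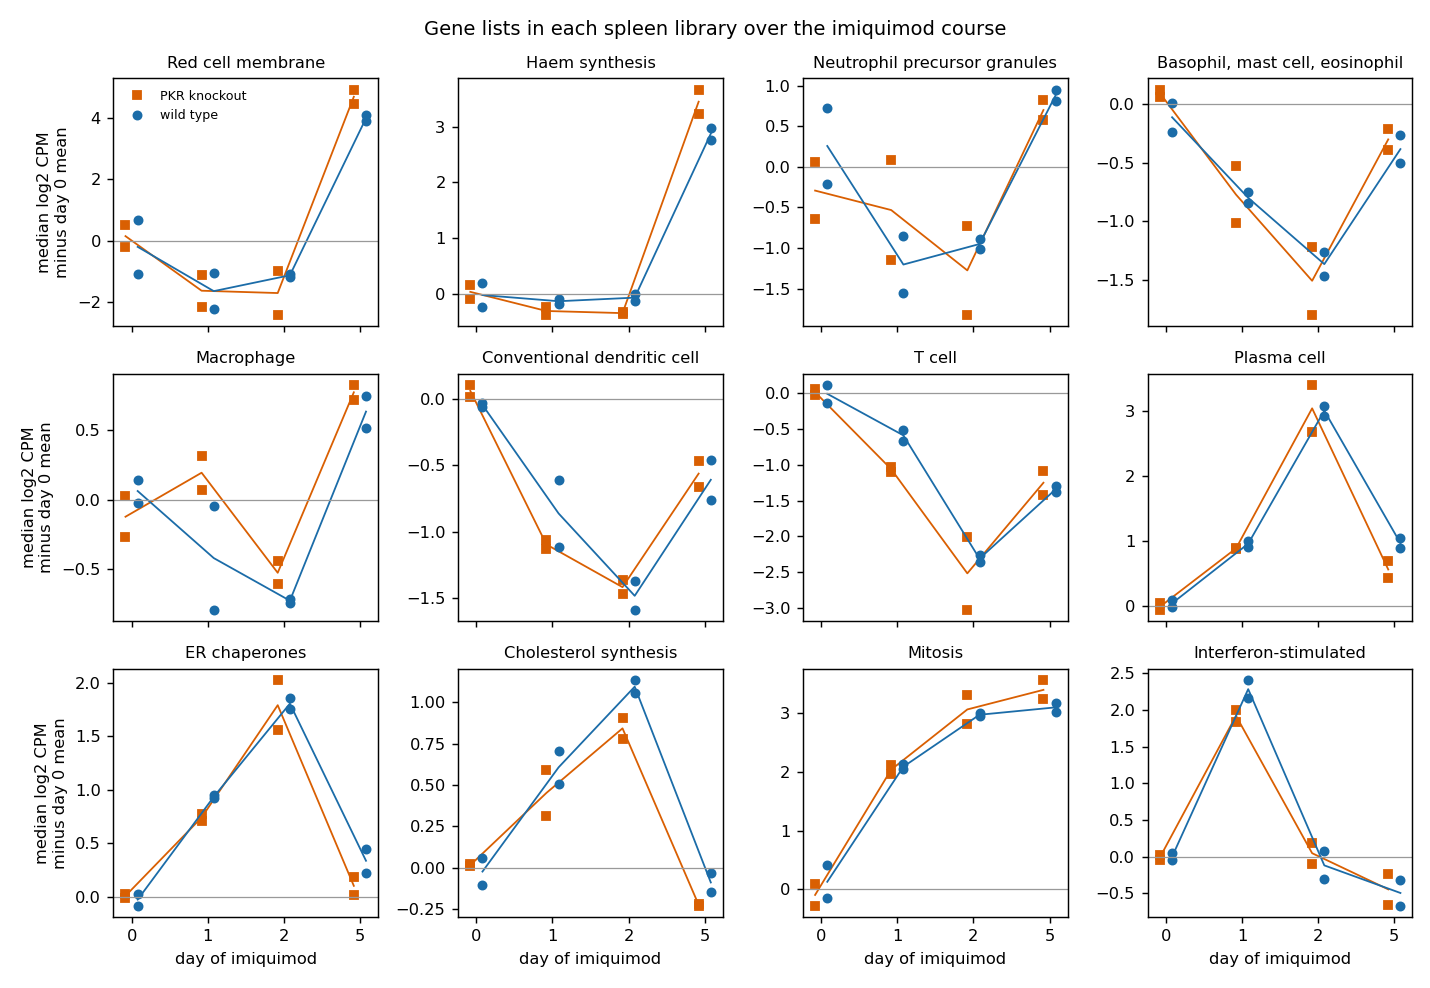
Median log2 CPM of the tested members of 12 lists, less the mean of the day 0 libraries, for each of the 16 libraries over days 0, 1, 2 and 5. Squares are PKR knockout and circles wild type, and lines join group means. Red cell membrane and haem lists lie below the day 0 mean on days 1 and 2 and 2.77 to 4.91 log2 units above it on day 5. Some of their day 1 and day 2 libraries lie within the range of day 0. Replicate 1 of the day 0 wild type is at -1.09 for the membrane list and -0.25 for the haem list. Plasma cell, ER chaperone and cholesterol lists peak on day 2.

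Levels can also be set beside untreated spleens. The median change from day 0 of the membrane list was -1.84 on day 2 and 4.32 on day 5, and that of the haem list was -0.19 and 3.25. These 2 changes share the day 0 libraries, and each shares libraries with the comparison of day 5 and day 2. They are given as a description.

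Stem and progenitor genes were higher for 10 of 12 tested, with a median log2 change of 1.62, or 0.61 in limma on log2(FPKM + 0.5), a scale that shrinks the changes of low genes. Kit, the receptor of stem cell factor, had 18.6 and 14.9 CPM in day 5 knockout and 13.6 and 17.8 CPM in day 5 wild-type libraries, and 2.66 and 3.61 CPM in day 2 knockout and 3.85 and 4.28 CPM in day 2 wild-type libraries. All day 5 values lay well above all day 2 values, 2.17 ± 0.15 (log2, SE; adjusted p = 1.26e-07). Cd34 had 2.03 and 1.11 CPM in the knockout and 1.66 and 1.84 CPM in the wild type on day 5, against 0.407 and 0.398 CPM in the knockout and 0.197 and 0.53 CPM in the wild type on day 2. Cd34 changed by 2.08 ± 0.29 (log2, SE; adjusted p = 6.69e-05). Hoxa9, a factor of stem cells, had 64 counts on day 5 and 1 on day 2, a ratio of 66.5 (95% interval 11.5 to 2667). For 10 of the 12 tested all 4 day 5 libraries were above all 4 of day 2. In the megakaryocyte list 7 of 16 were higher (43.8%, all genes 24%) and none lower. Its median was 0.86, or 0.60 without replicate 1 of the day 2 knockout and 0.30 in limma on log2(FPKM + 0.5). Read apart, 3 of 16 were higher in the wild type, where 16.6% of all genes were, with a median of 0.53. In the knockout 7 were higher (all genes 18.8%), with a median of 1.12, or 0.56 without replicate 1 of day 2. Vwf, made by megakaryocytes and by endothelium, had 17.8 and 14 CPM in knockout and 12 and 9.71 CPM in wild-type libraries on day 5, against 1.01 and 3.26 CPM in knockout and 2.58 and 3.39 CPM in wild-type libraries on day 2. Vwf changed by 2.35 ± 0.37 (log2, SE; adjusted p = 0.00194). In the endothelial list 4 of 12 were higher, against 24% of all genes, and none lower. Its median was 0.65, or 0.15 in limma on log2(FPKM + 0.5). Without replicate 2 of the day 2 wild type or replicate 1 of the day 5 knockout 2 were. Its leading gene Eng, endoglin, changed by 1.68 ± 0.18 (log2, SE; adjusted p = 8.24e-06).

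Neutrophil precursor genes, which fill granules during maturation in the marrow, were higher for 12 of 12, with a median of 3.00. Ngp, a granule protein, had 123 and 144 CPM in day 5 knockout and 119 and 147 CPM in day 5 wild-type libraries, and 2.44 and 15.2 CPM in day 2 knockout and 11.7 and 13.1 CPM in day 2 wild-type libraries. The day 5 libraries of the genotypes were interleaved, and the change was 3.66 ± 0.54 (log2, SE; adjusted p = 0.00264). Ltf, lactoferrin, changed by 3.65 ± 0.54 (log2, SE; adjusted p = 0.00257) and Camp, the cathelicidin, by 3.62 ± 0.43 (log2, SE; adjusted p = 7.69e-04). Elane, elastase of the earliest granules, had 10.4 and 10.7 CPM in the knockout and 11 and 15.4 CPM in the wild type on day 5, against 0.462 and 1.87 CPM in the knockout and 1.82 and 2 CPM in the wild type on day 2. Elane changed by 2.95 ± 0.30 (log2, SE; adjusted p = 7.20e-05). In this list replicate 1 of the day 2 knockout was again low, and without it the median was 2.72 with 12 of 12 called.

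Genes of mature neutrophils moved less as a group: 5 of 14 were higher (35.7%, all genes 24%) and 1 lower, with a median of 0.55. Without replicate 2 of the day 2 knockout 9 were higher and the median was 0.85, and without replicate 1 of the day 2 wild type it was 0.37. The medians were 0.12 in the knockout and 0.88 in the wild type. Ly6g, the surface marker, had 1.73 and 2.13 CPM in knockout and 2.17 and 2.39 CPM in wild-type libraries on day 5, against 0.272 and 1.12 CPM in knockout and 0.168 and 0.392 CPM in wild-type libraries on day 2. Ly6g changed by 2.12 ± 0.43 (log2, SE; adjusted p = 0.0028). Cd177 changed by 3.01 ± 0.33 (log2, SE; adjusted p = 2.28e-04). S100a8, a subunit of calprotectin, had 98.2 and 144 CPM in day 5 knockout and 134 and 160.1 CPM in day 5 wild-type libraries, and 36.9 and 99.999 CPM in day 2 knockout and 30.3 and 51.9 CPM in day 2 wild-type libraries. Its days overlapped through replicate 2 of the day 2 knockout, 1.33 ± 0.43 (log2, SE; adjusted p = 0.0493), and the call was lost without any one of 6 libraries, all but replicate 2 of the day 2 knockout and replicate 1 of the day 5 knockout. S100a9, its partner, had 223 and 334 CPM in the knockout and 321 and 376 CPM in the wild type on day 5, against 96.7 and 249 CPM in the knockout and 68.4 and 115 CPM in the wild type on day 2, and missed the threshold at an adjusted p of 0.0599, or 0.00179 without replicate 2 of the day 2 knockout. The lower gene was Il1r2, the decoy receptor of interleukin 1, with 1.58 and 1.69 CPM in knockout and 1.83 and 1.96 CPM in wild-type libraries on day 5, against 5.38 and 16.3 CPM in knockout and 5.33 and 7.14 CPM in wild-type libraries on day 2. Il1r2 changed by -2.22 ± 0.41 (log2, SE; adjusted p = 0.00384).

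Of 13 basophil, mast cell and eosinophil genes 11 were higher and 1 lower. The median was 2.69, or 2.42 without replicate 1 of the day 2 knockout and 1.20 in limma on log2(FPKM + 0.5). Mcpt8, the basophil protease, had 2.6 and 2.86 CPM in day 5 knockout and 2.17 and 2.79 CPM in day 5 wild-type libraries, and 0.0272 and 0.298 CPM in day 2 knockout and 0.14 and 0.196 CPM in day 2 wild-type libraries. Mcpt8 changed by 3.91 ± 0.33 (log2, SE; adjusted p = 7.72e-07). Prss34, another basophil protease, had 3.55 and 3.97 CPM in the knockout and 3.61 and 2.98 CPM in the wild type on day 5, against 0.0543 and 0.199 CPM in the knockout and 0.505 and 0.333 CPM in the wild type on day 2. Prss34 changed by 3.69 ± 0.33 (log2, SE; adjusted p = 2.30e-06). Epx, eosinophil peroxidase, had 3.93 and 2.98 CPM in knockout and 1.64 and 2.6 CPM in wild-type libraries on day 5, against 0.0272 and 0.124 CPM in knockout and 0.393 and 0.353 CPM in wild-type libraries on day 2. Epx changed by 3.56 ± 0.49 (log2, SE; adjusted p = 3.09e-04). For these 3 every day 5 library was above every day 2 library. Il5ra was lower by -0.44 ± 0.17 (log2, SE; adjusted p = 0.0481), with overlapping days, and kept its call among leave-one-out fits only without replicate 2 of the day 2 knockout. From day 0 the list median was -2.86 on day 2 and -0.54 on day 5.

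Macrophage genes were higher for 16 of 17 tested, with a median of 1.65. Vcam1, the adhesion molecule of red pulp macrophages and stroma, had 77.8 and 66.6 CPM in day 5 knockout and 76 and 63.8 CPM in day 5 wild-type libraries, and 9.45 and 6.07 CPM in day 2 knockout and 8.37 and 7.12 CPM in day 2 wild-type libraries. Each day formed a tight band in both genotypes, 3.20 ± 0.14 (log2, SE; adjusted p = 5.50e-09). Cd163, the receptor that takes up haemoglobin, had 3.98 and 3.15 CPM in the knockout and 2.9 and 2.53 CPM in the wild type on day 5, against 0.163 and 0.124 CPM in the knockout and 0.449 and 0.255 CPM in the wild type on day 2. Cd163 changed by 3.66 ± 0.30 (log2, SE; adjusted p = 5.92e-07). Hpgd, which breaks down prostaglandins, changed by 3.61 ± 0.16 (log2, SE; adjusted p = 3.54e-09). Slc40a1, which lets iron out of macrophages, had 68.1 and 67.9 CPM in knockout and 69.8 and 63.8 CPM in wild-type libraries on day 5, against 12 and 11.2 CPM in knockout and 8.7 and 10.6 CPM in wild-type libraries on day 2. Slc40a1 changed by 2.67 ± 0.094 (log2, SE; adjusted p = 1.66e-09). Spic, the factor of red pulp macrophages, had a smaller change, with 13.2 and 14.5 CPM in day 5 knockout and 14.2 and 13.4 CPM in day 5 wild-type libraries, and 7.09 and 7.98 CPM in day 2 knockout and 6.62 and 8.14 CPM in day 2 wild-type libraries. Spic changed by 0.89 ± 0.10 (log2, SE; adjusted p = 1.03e-05). Hmox1, which opens the haem ring, had 34.2 and 30.7 CPM in the knockout and 32.3 and 28 CPM in the wild type on day 5, against 15.9 and 21.5 CPM in the knockout and 21.3 and 20.5 CPM in the wild type on day 2. Hmox1 changed by 0.66 ± 0.11 (log2, SE; adjusted p = 2.28e-04). These higher genes had no overlap of days. Siglec1, of marginal metallophilic macrophages, was the lower member, with 1.18 and 1.96 CPM in knockout and 1.32 and 0.662 CPM in wild-type libraries on day 5, against 3.4 and 3.21 CPM in knockout and 2.08 and 3.29 CPM in wild-type libraries on day 2. Siglec1 changed by -1.26 ± 0.24 (log2, SE; adjusted p = 9.01e-04).

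Of 13 monocyte genes 9 were higher (69.2%, all genes 24%), with a list median of 1.51. A further 3 were lower (23.1%), a share near the 22% of all genes. Ace and Cx3cr1, high in patrolling monocytes, changed by 2.93 ± 0.15 (log2, SE; adjusted p = 4.39e-08) and 2.55 ± 0.12 (log2, SE; adjusted p = 8.24e-09). Csf1r, the receptor of the growth factor for the lineage, had 188 and 216 CPM in day 5 knockout and 222 and 189 CPM in day 5 wild-type libraries, and 46.2 and 38.2 CPM in day 2 knockout and 55.4 and 47.7 CPM in day 2 wild-type libraries. Csf1r changed by 2.12 ± 0.11 (log2, SE; adjusted p = 9.80e-09). Ly6c2, high in inflammatory monocytes and in some lymphocytes, had 35.3 and 43.9 CPM in the knockout and 42.7 and 49.3 CPM in the wild type on day 5, against 97.5 and 106 CPM in the knockout and 85.9 and 97.9 CPM in the wild type on day 2. Ly6c2 changed by -1.18 ± 0.11 (log2, SE; adjusted p = 1.40e-06). Plac8 fell too, by -0.90 ± 0.10 (log2, SE; adjusted p = 1.09e-05), and the other lower gene was Vcan at -0.62 ± 0.13 (log2, SE; adjusted p = 0.00151), a call that was lost in a fit of all 16 libraries and with knockout libraries alone.

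Conventional dendritic cell genes were higher for 11 of 14 and lower for 1. Cd209a, a mouse homologue of DC-SIGN, had 1.73 and 1.11 CPM in knockout and 1.68 and 1.3 CPM in wild-type libraries on day 5, against 0 and 0 CPM in knockout and 0 and 0.0392 CPM in wild-type libraries on day 2. Its 231 counts on day 5 against 2 on day 2 give a ratio of 120.0 (95% interval 32.9 to 997). Xcr1, a marker of cross-presenting cells, had 3.2 and 3.21 CPM in day 5 knockout and 2.76 and 2.13 CPM in day 5 wild-type libraries, and 0.625 and 0.174 CPM in day 2 knockout and 0.197 and 0.353 CPM in day 2 wild-type libraries. Xcr1 changed by 3.05 ± 0.29 (log2, SE; adjusted p = 2.03e-06). Clec9a, of the same cells, changed by 2.65 ± 0.20 (log2, SE; adjusted p = 2.82e-07). The median of this list from day 0 was -1.95 on day 2 and -0.70 on day 5.

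Plasmacytoid dendritic cell genes did not move as a block: 4 of 12 were higher (33.3%, all genes 24%) and 6 lower (50%, all genes 22%). Siglech, the surface marker, had 5.53 and 6.05 CPM in the knockout and 6.25 and 5.51 CPM in the wild type on day 5, against 0.299 and 0.124 CPM in the knockout and 0.253 and 0.216 CPM in the wild type on day 2. The difference between the days was 26.1-fold, 4.71 ± 0.21 (log2, SE; adjusted p = 3.98e-09), in the same direction in both genotypes. Bst2, which is also induced by interferon, had 7.99 and 10.5 CPM in knockout and 10.6 and 11.8 CPM in wild-type libraries on day 5, against 33.6 and 29.6 CPM in knockout and 26.1 and 33 CPM in wild-type libraries on day 2. Bst2 changed by -1.58 ± 0.12 (log2, SE; adjusted p = 3.72e-07), and the chemokine receptor Ccr9 changed by -1.33 ± 0.15 (log2, SE; adjusted p = 9.72e-06). From day 0, Siglech was at -5.10 on day 2 and -0.38 on day 5.

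Plasma cell genes made the opposite move: 16 of 17 were lower, against 22% of all genes, and none higher. The median log2 change was -2.35, or -2.19 without replicate 1 of the day 2 knockout. Xbp1, the factor of secretory capacity at chr11:5520659-5525893 of mm10, had 63.2 and 75.8 CPM in day 5 knockout and 78.6 and 97.3 CPM in day 5 wild-type libraries, and 681 and 393 CPM in day 2 knockout and 536 and 458 CPM in day 2 wild-type libraries. The highest day 5 library lay under the lowest of day 2 by a wide margin, -2.72 ± 0.19 (log2, SE; adjusted p = 3.95e-06). Prdm1, Blimp-1, which drives plasma cell fate, had 4.96 and 4.58 CPM in the knockout and 6.15 and 7.59 CPM in the wild type on day 5, against 68.6 and 38.4 CPM in the knockout and 50.5 and 45.5 CPM in the wild type on day 2. Prdm1 changed by -3.13 ± 0.23 (log2, SE; adjusted p = 1.03e-05). Bhlha15, MIST1, a factor of secretory cells, had 2.28 and 3.48 CPM in knockout and 3.61 and 4.82 CPM in wild-type libraries on day 5, against 41.6 and 28 CPM in knockout and 38 and 29 CPM in wild-type libraries on day 2. Bhlha15 changed by -3.28 ± 0.22 (log2, SE; adjusted p = 3.39e-06). Creld2, an ER chaperone listed here, had 14.7 and 17.6 CPM in day 5 knockout and 21.8 and 26.7 CPM in day 5 wild-type libraries, and 192 and 156 CPM in day 2 knockout and 205 and 175 CPM in day 2 wild-type libraries. Creld2 changed by -3.20 ± 0.13 (log2, SE; adjusted p = 3.92e-09). None of these had a day 5 library inside the range of day 2. Jchain, which joins IgM and IgA units, had 223 and 306 CPM in the knockout and 353 and 469.7 CPM in the wild type on day 5, against 1198 and 591 CPM in the knockout and 1033 and 673 CPM in the wild type on day 2. Its change of -1.41 ± 0.31 (log2, SE; adjusted p = 0.00954) was smaller, at -1.10 without replicate 1 of the day 2 knockout.

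Genes of the antibody itself fell in part. Immunoglobulin genes together took 0.773% and 0.918% of all fragments in knockout and 1.17% and 1.54% in wild-type libraries on day 5, against 4.30% and 2.49% in knockout and 4.16% and 2.99% in wild-type libraries on day 2. Of 13 genes, the constant regions and the J chain, 6 were lower (46.2%, all genes 22%) and 3 higher (23.1%, all genes 24%). Without replicate 1 of the day 2 knockout 2 were higher. Ighm, the IgM heavy chain at chr12:113420741-113422730 of mm10, had 3125 and 3897 CPM in knockout and 4819 and 5428 CPM in wild-type libraries on day 5, against 22663 and 13122 CPM in knockout and 21901 and 15771 CPM in wild-type libraries on day 2. All day 5 values lay below all day 2 values, -2.11 ± 0.20 (log2, SE; adjusted p = 3.05e-05). Igkc, the kappa chain, had 1762 and 2015 CPM in day 5 knockout and 2544 and 3528 CPM in day 5 wild-type libraries, and 9348 and 6269.8 CPM in day 2 knockout and 10003 and 7334 CPM in day 2 wild-type libraries. Igkc changed by -1.78 ± 0.19 (log2, SE; adjusted p = 4.66e-05). Ighg2c went the other way, with 438 and 497 CPM in the knockout and 624 and 1125 CPM in the wild type on day 5, against 143 and 167 CPM in the knockout and 247 and 183 CPM in the wild type on day 2. It was higher by 1.81 ± 0.20 (log2, SE; adjusted p = 9.78e-05) with no overlap of days. Ighd, the IgD of resting B cells, had 184 and 186 CPM in knockout and 222 and 172 CPM in wild-type libraries on day 5, against 112 and 90.4 CPM in knockout and 118 and 109.7 CPM in wild-type libraries on day 2. Ighd changed by 0.83 ± 0.10 (log2, SE; adjusted p = 1.96e-05). Ighg2b had 351 and 398 CPM in day 5 knockout and 449.6 and 856 CPM in day 5 wild-type libraries, and 304 and 310.3 CPM in day 2 knockout and 366 and 357 CPM in day 2 wild-type libraries, with overlapping days, 0.57 ± 0.20 (log2, SE; adjusted p = 0.0469), a call lost without either library of the day 2 wild type or the day 2 knockout or replicate 2 of the day 5 knockout. Ighg1, Ighg3 and Igha, named here after their values were seen, had adjusted p of 0.0875, 0.0954 and 0.92 and overlapping days. Ighg1 passed the threshold without replicate 2 of the day 2 wild type at 0.0022, and Ighg3 without replicate 2 of the day 5 wild type at 0.0482.

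**Figure D4:**
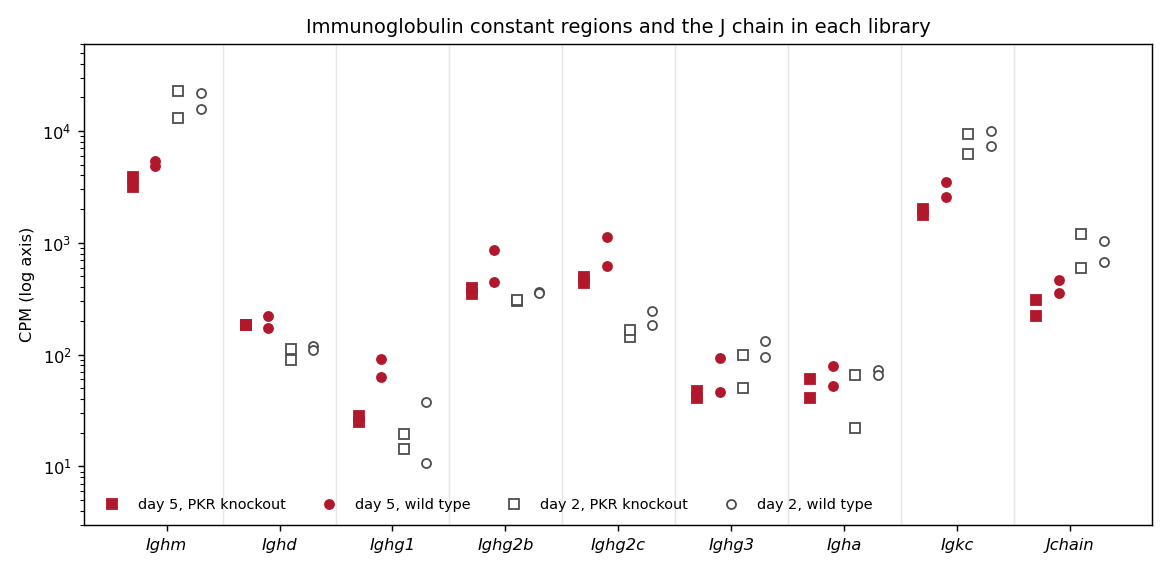
CPM on a log axis of 8 immunoglobulin constant regions and the J chain, 1 point per library, in the order day 5 knockout, day 5 wild type, day 2 knockout, day 2 wild type within each gene. Filled red marks are day 5 and open grey marks day 2. Ighm, Igkc and Jchain are lower on day 5 in all 4 libraries, while Ighd and Ighg2c are higher in all 4.

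The variable segments followed Ighm. Of 114 tested heavy chain segments 96 were lower and none higher, with a median of -1.62. Of 106 kappa segments 99 were lower and none higher, with a median of -1.76. Without replicate 1 of the day 2 knockout these medians were -1.385 and -1.604. Segments are close copies of each other, so single ones are not named.

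All 23 tested genes of the list of ER chaperones and unfolded protein response targets were lower, with a median of -1.70. For 23 of 23 all 4 day 5 libraries lay below all 4 day 2 libraries, against 20.3% of all genes. Hsp90b1, whose promoter is printed above, had 269 and 312 CPM in the knockout and 358 and 455 CPM in the wild type on day 5, against 2723 and 1867 CPM in the knockout and 2229 and 1825 CPM in the wild type on day 2. It fell by 2.65 on the log2 scale (SE 0.19, adjusted p = 2.03e-06). Hspa5, chosen for its promoter, had 210.0 and 233 CPM in knockout and 239 and 271 CPM in wild-type libraries on day 5, against 933 and 938 CPM in knockout and 1026 and 960.3 CPM in wild-type libraries on day 2. Hspa5 changed by -2.02 ± 0.087 (log2, SE; adjusted p = 3.47e-09). Pdia6 had 52 and 64 CPM in day 5 knockout and 70.8 and 81 CPM in day 5 wild-type libraries, and 484 and 366 CPM in day 2 knockout and 442 and 405 CPM in day 2 wild-type libraries. Pdia6 changed by -2.68 ± 0.13 (log2, SE; adjusted p = 8.24e-09). Sdf2l1, a partner of BiP, had 11.5 and 12 CPM in the knockout and 13.8 and 18.2 CPM in the wild type on day 5, against 92.7 and 73.9 CPM in the knockout and 94.5 and 87.4 CPM in the wild type on day 2. Sdf2l1 changed by -2.67 ± 0.12 (log2, SE; adjusted p = 3.92e-09). From day 0 the list median was 1.84 on day 2 and 0.23 on day 5.

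Of 24 targets of ATF4, the factor of the integrated stress response which PKR can trigger, 15 were lower and 2 higher, with a median of -0.56, or -0.36 among genes with an FPKM of 1 or more in at least 4 libraries. Aldh1l2, of mitochondrial folate metabolism, had 0.0501 and 0.0584 CPM in knockout and 0.171 and 0.142 CPM in wild-type libraries on day 5, against 0.951 and 1.22 CPM in knockout and 0.646 and 0.883 CPM in wild-type libraries on day 2. Aldh1l2 changed by -3.06 ± 0.40 (log2, SE; adjusted p = 3.33e-05). Pycr1, of proline synthesis, had 1.38 and 1.08 CPM in day 5 knockout and 2.1 and 2.39 CPM in day 5 wild-type libraries, and 14.3 and 7.83 CPM in day 2 knockout and 12 and 8 CPM in day 2 wild-type libraries. Pycr1 changed by -2.61 ± 0.29 (log2, SE; adjusted p = 9.79e-05). Asns, asparagine synthetase, went up, with 27 and 21.8 CPM in the knockout and 19.2 and 29.1 CPM in the wild type on day 5, against 9.54 and 15 CPM in the knockout and 9.54 and 13.8 CPM in the wild type on day 2. Asns changed by 1.01 ± 0.19 (log2, SE; adjusted p = 0.00224), and so did Nupr1 at 0.66 ± 0.13 (log2, SE; adjusted p = 7.58e-04).

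The 12 largest falls were Mamdc2, Slc7a3, Banf2os, Crybb1, Nox1, Bcat1, Mfsd2a, Hspb1, Alpl, Bhlha15, Tg and Creld2. Mamdc2 had 0.175 and 0.0584 CPM in knockout and 0.464 and 0.331 CPM in wild-type libraries on day 5, against 11.7 and 5.52 CPM in knockout and 7.5 and 6.24 CPM in wild-type libraries on day 2. It was the largest of all, -4.85 ± 0.44 (log2, SE; adjusted p = 3.36e-05). Slc7a3, a carrier of cationic amino acids, had 0.15 and 0 CPM in day 5 knockout and 0.317 and 0.26 CPM in day 5 wild-type libraries, and 5.11 and 4.8 CPM in day 2 knockout and 4.01 and 5.43 CPM in day 2 wild-type libraries. Slc7a3 changed by -4.67 ± 0.36 (log2, SE; adjusted p = 1.39e-06). Bcat1, which breaks down branched-chain amino acids in the cytosol, had 1.15 and 1.49 CPM in the knockout and 1.54 and 1.28 CPM in the wild type on day 5, against 15.3 and 21.1 CPM in the knockout and 12.5 and 19.2 CPM in the wild type on day 2. Bcat1 changed by -3.64 ± 0.18 (log2, SE; adjusted p = 1.72e-08). Alpl, an alkaline phosphatase, had 5.43 and 8.21 CPM in knockout and 9.28 and 9.29 CPM in wild-type libraries on day 5, against 90.2 and 77.6 CPM in knockout and 88.8 and 84.3 CPM in wild-type libraries on day 2. Alpl changed by -3.42 ± 0.14 (log2, SE; adjusted p = 3.46e-09). Tg, thyroglobulin, known from the thyroid, had 1.75 and 1.2 CPM in day 5 knockout and 1.68 and 1.63 CPM in day 5 wild-type libraries, and 20.9 and 12.1 CPM in day 2 knockout and 14.7 and 13.9 CPM in day 2 wild-type libraries. Tg changed by -3.28 ± 0.19 (log2, SE; adjusted p = 7.50e-08). Nox1 changed by -3.65, Mfsd2a, a carrier of lysophospholipids, by -3.57, Crybb1 by -3.79 and Banf2os by -3.91 on the log2 scale. From day 0 Mamdc2, Slc7a3 and Alpl were at 6.99, 5.39 and 5.26 on day 2 and at 1.87, 0.42 and 1.84 on day 5.

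Cholesterol synthesis genes were lower for 23 of 23, with a median of -1.39. Cyp51, lanosterol demethylase, had 7.16 and 7.97 CPM in the knockout and 7.15 and 8.53 CPM in the wild type on day 5, against 39.5 and 34.6 CPM in the knockout and 38.6 and 46.2 CPM in the wild type on day 2. The 4 libraries of a day lay close together, -2.37 ± 0.10 (log2, SE; adjusted p = 3.53e-09). Insig1, which holds back the sterol sensor, had 9.16 and 9.78 CPM in knockout and 11.2 and 11 CPM in wild-type libraries on day 5, against 47.7 and 35.3 CPM in knockout and 51.6 and 48.8 CPM in wild-type libraries on day 2. Insig1 changed by -2.15 ± 0.10 (log2, SE; adjusted p = 6.03e-09). For both, and for 22 of the 23 genes of the list, every day 5 library was below every day 2 library. From day 0 the median was 1.11 on day 2 and -0.23 on day 5.

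Of 17 glycolysis and hypoxia genes 11 were lower and 2 higher. Hk2, a hexokinase, had 14.8 and 18.6 CPM in day 5 knockout and 18.9 and 18.7 CPM in day 5 wild-type libraries, and 52.4 and 53 CPM in day 2 knockout and 45.5 and 47.6 CPM in day 2 wild-type libraries. Hk2 changed by -1.48 ± 0.099 (log2, SE; adjusted p = 9.24e-08). Vegfa changed by -1.70 ± 0.13 (log2, SE; adjusted p = 2.82e-07), and the lactate exporter Slc16a3 was one of the higher genes, at 1.04 ± 0.13 (log2, SE; adjusted p = 2.20e-05). The other was Egln3 at 0.87 ± 0.24 (log2, SE; adjusted p = 0.00931). Of 11 heat shock genes 7 were lower and none higher, with 9 lower without replicate 1 of the day 2 knockout. Hspa1a had 32.4 and 14.7 CPM in the knockout and 8.79 and 8.63 CPM in the wild type on day 5, against 17.4 and 196 CPM in the knockout and 115 and 278 CPM in the wild type on day 2. These spread widely, replicate 1 of the day 2 knockout lay inside the range of day 5, and the call of -3.31 ± 1.05 (log2, SE; adjusted p = 0.0499) was lost without any one library but that one. Hspb1 had 0.15 and 0.0876 CPM in knockout and 0.0976 and 0.0236 CPM in wild-type libraries on day 5, against 0.19 and 1.74 CPM in knockout and 0.618 and 1.43 CPM in wild-type libraries on day 2. Hspb1 changed by -3.46 ± 0.78 (log2, SE; adjusted p = 0.00582).

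Ribosomal protein genes were lower for 77 of 87 and higher for 1, with a median of -0.40. Rpl10 had 321 and 340.4 CPM in day 5 knockout and 346 and 374 CPM in day 5 wild-type libraries, and 613 and 478 CPM in day 2 knockout and 632 and 588 CPM in day 2 wild-type libraries. Rpl10 changed by -0.74 ± 0.093 (log2, SE; adjusted p = 2.53e-05). The higher one was the muscle paralogue Rpl3l, at 2.02 ± 0.35 (log2, SE; adjusted p = 4.19e-04). Genes of the mitochondrial genome were lower for 7 of 13 and, without replicate 1 of the day 2 knockout, for 13 of 13, with medians of -0.63 and -0.78. mt-Nd3 had 66 and 62.7 CPM in the knockout and 68.4 and 69.7 CPM in the wild type on day 5, against 76.5 and 144 CPM in the knockout and 97.3 and 139.5 CPM in the wild type on day 2. mt-Nd3 changed by -0.78 ± 0.19 (log2, SE; adjusted p = 0.00949).

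T cell genes were higher for 18 of 22 with none lower, with a median of 1.00; without replicate 1 of the day 2 knockout 21 were higher and 1 lower, with a median of 0.82. Cd3e, of the receptor complex, had 10.8 and 12.5 CPM in knockout and 12.5 and 11 CPM in wild-type libraries on day 5, against 2.5 and 7.68 CPM in knockout and 5.17 and 4.9 CPM in wild-type libraries on day 2. Replicate 1 of the day 2 knockout was the lowest here as well, 1.21 ± 0.29 (log2, SE; adjusted p = 0.0101), and the change without it was 0.96. Cd8a had 17.4 and 24 CPM in day 5 knockout and 20.8 and 20.5 CPM in day 5 wild-type libraries, and 5.46 and 8.58 CPM in day 2 knockout and 6.68 and 7.96 CPM in day 2 wild-type libraries. Cd8a changed by 1.52 ± 0.14 (log2, SE; adjusted p = 2.91e-06). From day 0 the list median was -2.51 on day 2 and -1.33 on day 5, so that day 5 lay between. Of 29 T cell receptor variable segments tested 18 were higher and none lower, with 9 to 11 higher without replicate 1 of the day 2 wild type, replicate 1 of the day 5 wild type or replicate 2 of the day 5 knockout.

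NK and cytotoxic genes were higher for 11 of 19 (57.9%, all genes 24%) and lower for 3 (15.8%, all genes 22%). Ccl5, a chemokine of effector cells, changed by 1.16 ± 0.11 (log2, SE; adjusted p = 1.61e-06) and Eomes, a factor of NK and memory cells, by 1.12 ± 0.16 (log2, SE; adjusted p = 7.53e-05). Gzmb, granzyme B, had 7.08 and 7.71 CPM in the knockout and 11.9 and 7.11 CPM in the wild type on day 5, against 13.7 and 20.3 CPM in the knockout and 15 and 16.4 CPM in the wild type on day 2. Gzmb changed by -0.96 ± 0.19 (log2, SE; adjusted p = 0.00203). The other lower genes were Gzma at -0.74 ± 0.11 (log2, SE; adjusted p = 9.79e-05) and Tbx21 at -0.46 ± 0.14 (log2, SE; adjusted p = 0.0143), a call lost without replicate 1 of the day 5 knockout (adjusted p = 0.0522). Of 23 Klr receptor genes 10 were higher (43.5%, all genes 24%) and none lower.

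B cell genes showed no common direction, with 3 of 18 higher (24% of all genes), 6 lower (22% of all genes) and a median of -0.13. That median was -0.05 without replicate 1 and -0.20 without replicate 2 of the day 2 knockout, and -0.08 without replicate 2 of the day 5 wild type. Ms4a1, CD20, missed the threshold at -0.18 ± 0.11 (log2, SE; adjusted p = 0.203), and had an adjusted p of 0.0349 without replicate 2 of the day 2 knockout. Fcer2a, CD23 of follicular B cells, had 50.9 and 55 CPM in knockout and 57.8 and 45.5 CPM in wild-type libraries on day 5, against 17.4 and 20.7 CPM in knockout and 25 and 21.3 CPM in wild-type libraries on day 2. Fcer2a changed by 1.31 ± 0.11 (log2, SE; adjusted p = 6.36e-07). Tnfrsf13c, the receptor of the survival factor BAFF, had 47.6 and 46.1 CPM in day 5 knockout and 52.6 and 42.2 CPM in day 5 wild-type libraries, and 88.9 and 72.8 CPM in day 2 knockout and 85.5 and 83.7 CPM in day 2 wild-type libraries. Tnfrsf13c changed by -0.81 ± 0.093 (log2, SE; adjusted p = 1.16e-05). The other higher genes were H2-Ob at 0.56 ± 0.10 (log2, SE; adjusted p = 5.05e-04) and Ebf1 at 0.29 ± 0.082 (log2, SE; adjusted p = 0.00999), and the Ebf1 call was lost without replicate 2 of the day 5 knockout. In the germinal centre list 1 of 11 was higher, Gcsam at 1.78 ± 0.30 (log2, SE; adjusted p = 2.78e-04), with 2 without replicate 2 of the day 2 knockout, and 5 were lower.

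Antigen presentation genes of class II changed little as a group. Of 8 tested, 4 were higher (50%, all genes 24%) and none lower, with a median of 0.30. H2-Oa led them at 1.07 ± 0.17 (log2, SE; adjusted p = 6.95e-04). Read apart, 1 of 8 was higher in the wild type (median 0.11) and 5 in the knockout (median 0.49). Their summed levels overlapped, at 2355 to 2764 CPM on day 5 and 1771 to 2769 CPM on day 2. Of 10 class I genes 9 were lower (90%, all genes 22%) and none higher, with a median of -0.65. H2-K1 had 467 and 553 CPM in the knockout and 558 and 500.5 CPM in the wild type on day 5, against 921 and 867 CPM in the knockout and 1060.0 and 996 CPM in the wild type on day 2. H2-K1 changed by -0.88 ± 0.090 (log2, SE; adjusted p = 3.80e-06).

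Cell division stayed high on both days. From day 0 the median of 30 mitosis genes was 3.13 on day 2 and 3.33 on day 5. Between the days 10 were higher and 3 lower, against 24% and 22% of all genes, with a median of 0.23. Without replicate 1 of the day 2 knockout 15 were higher, and without replicate 2 the median was 0.096. Mki67, the marker of cycling cells, had 2073 and 1604 CPM in knockout and 1328 and 1262 CPM in wild-type libraries on day 5, against 1232 and 795 CPM in knockout and 869 and 803 CPM in wild-type libraries on day 2. The first knockout library of day 5 was the highest and the overlap with day 2 was nil, 0.74 ± 0.13 (log2, SE; adjusted p = 6.57e-04). Anln, of the contractile ring, changed by 1.02 ± 0.10 (log2, SE; adjusted p = 4.29e-06), Ccna2 by 0.76 ± 0.13 (log2, SE; adjusted p = 4.65e-04) and Aurkb by -0.38 ± 0.11 (log2, SE; adjusted p = 0.0142), the last with overlapping days, a call lost without replicate 1 of the day 5 wild type. The number of lower mitosis genes was 1 without replicate 1 of the day 5 wild type and 6 without replicate 2 of the day 2 knockout. Among 27 replication genes 5 were higher and 2 lower, both shares under those of all genes, with 4 lower without replicate 2 of the day 5 wild type or of the day 2 knockout. Orc1, of the origin recognition complex, changed by 0.90 ± 0.12 (log2, SE; adjusted p = 4.07e-05).

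Interferon-stimulated genes were lower for 17 of 36 (47.2%, all genes 22%) and higher for 3 (8.33%, all genes 24%), with a median of -0.58. Their median from day 0 was 2.14 on day 1, -0.03 on day 2 and -0.47 on day 5. Ifi27l2a had 17.3 and 33.6 CPM in day 5 knockout and 25.1 and 20.6 CPM in day 5 wild-type libraries, and 126 and 110.1 CPM in day 2 knockout and 119.9 and 140.5 CPM in day 2 wild-type libraries. Ifi27l2a changed by -2.36 ± 0.20 (log2, SE; adjusted p = 2.00e-05). Oasl1 had 5.03 and 7.18 CPM in the knockout and 5.76 and 5.34 CPM in the wild type on day 5, against 14.5 and 21.2 CPM in the knockout and 15.3 and 20.005 CPM in the wild type on day 2. Oasl1 changed by -1.61 ± 0.15 (log2, SE; adjusted p = 2.99e-06). Rsad2, viperin, which makes an antiviral nucleotide, went the other way, with 119.7 and 144 CPM in knockout and 104 and 57.4 CPM in wild-type libraries on day 5, against 4.35 and 13.2 CPM in knockout and 3.87 and 7.61 CPM in wild-type libraries on day 2. The lowest day 5 library was over the highest of day 2, 3.85 ± 0.45 (log2, SE; adjusted p = 8.34e-04). Its genomic neighbour Cmpk2, a nucleotide kinase, had 26.9 and 27.2 CPM in day 5 knockout and 21.8 and 18.2 CPM in day 5 wild-type libraries, and 8.12 and 8.55 CPM in day 2 knockout and 8.17 and 9.87 CPM in day 2 wild-type libraries. Cmpk2 changed by 1.42 ± 0.12 (log2, SE; adjusted p = 1.01e-06). The other higher gene was Ifih1, MDA5, at 0.64 ± 0.11 (log2, SE; adjusted p = 3.79e-04).

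Of 21 inflammatory genes tested 11 were lower and 2 higher, with 14 lower without replicate 1 of the day 2 knockout. Il6 had 0.3 and 0.38 CPM in the knockout and 0.342 and 0.449 CPM in the wild type on day 5, against 2.58 and 3.26 CPM in the knockout and 1.71 and 2.24 CPM in the wild type on day 2. Il6 changed by -2.70 ± 0.24 (log2, SE; adjusted p = 1.13e-06). Il10 had 0.35 and 0.935 CPM in knockout and 0.586 and 0.473 CPM in wild-type libraries on day 5, against 2.85 and 4.43 CPM in knockout and 4.1 and 3.41 CPM in wild-type libraries on day 2. Il10 changed by -2.67 ± 0.26 (log2, SE; adjusted p = 2.63e-06). The higher ones were Il1a at 0.88 ± 0.34 (log2, SE; adjusted p = 0.0478), which was lost without any library other than replicate 2 of the day 2 wild type, and Il18 at 0.63 ± 0.15 (log2, SE; adjusted p = 0.00338). Il1b had 13.6 and 22.2 CPM in day 5 knockout and 22.4 and 22.2 CPM in day 5 wild-type libraries, and 23.3 and 48 CPM in day 2 knockout and 14.1 and 23.8 CPM in day 2 wild-type libraries, with an adjusted p of 0.484. Tnf had 4.96 and 5.34 CPM in the knockout and 5.76 and 4.07 CPM in the wild type on day 5, against 4.65 and 10.1 CPM in the knockout and 6.57 and 7.51 CPM in the wild type on day 2. It missed the threshold at 0.0731, and passed it without replicate 1 of the day 2 knockout at -0.71 and an adjusted p of 0.00162. Ifng changed by 0.69 ± 0.34 (log2, SE; adjusted p = 0.117).

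In the interleukin 23 and 17 axis, which drives psoriasis, few transcripts were found in the spleen. Il17a had 4 and 1 counts in knockout and 11 and 7 in wild-type libraries on day 5, against 1 and 1 in knockout and 0 and 0 in wild-type libraries on day 2, too few for the test across genes. Scaled for depth, its 23 counts on day 5 and 2 on day 2 have a ratio of 11.95 (95% interval 2.95 to 105, counting error only), and the second knockout library of day 5 had no more counts than those of day 2. Il17f had at most 5 counts and Il23a at most 5 counts in a library, and Il22 and Ifnb1 had 0 in all 8, which allows up to 3 counts a library. Of 7 genes of this panel with enough counts to test, 1 was higher (14.3%, all genes 24%) and none lower.

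Markers of other cells a spleen preparation can hold were read as well. Stromal genes were lower for 9 of 16 and higher for 1, with summed levels of 34.8 to 41.5 CPM on day 5 and 31.6 to 67.7 CPM on day 2. Cxcl13, the chemokine of the B cell follicle, had 0.375 and 0.409 CPM in knockout and 0.22 and 0.213 CPM in wild-type libraries on day 5, against 1.33 and 1.59 CPM in knockout and 0.954 and 0.883 CPM in wild-type libraries on day 2. Cxcl13 changed by -1.97 ± 0.24 (log2, SE; adjusted p = 1.72e-05). Col5a1, a fibrillar collagen, had 13.7 and 10.5 CPM in day 5 knockout and 8.01 and 10.8 CPM in day 5 wild-type libraries, and 1.63 and 2.51 CPM in day 2 knockout and 1.66 and 2.14 CPM in day 2 wild-type libraries. Col5a1 changed by 2.42 ± 0.17 (log2, SE; adjusted p = 1.52e-07). Epithelial genes were lower for 6 of 10 and higher for 2, with summed levels of 40.9 to 52.6 CPM on day 5 and 76.0 to 115 CPM on day 2. Epcam had 1.25 and 1.28 CPM in the knockout and 2.34 and 3.14 CPM in the wild type on day 5, against 23.8 and 13.1 CPM in the knockout and 16.1 and 14 CPM in the wild type on day 2. Epcam changed by -3.08 ± 0.35 (log2, SE; adjusted p = 3.00e-04). Tmed6, of the secretory pathway, had 3.7 and 4.44 CPM in knockout and 5.83 and 5.86 CPM in wild-type libraries on day 5, against 45.9 and 27 CPM in knockout and 41.9 and 36.2 CPM in wild-type libraries on day 2. Tmed6 changed by -2.94 ± 0.18 (log2, SE; adjusted p = 3.89e-07). Cldn2, a tight junction protein, had 2.48 and 3.83 CPM in day 5 knockout and 2.61 and 2.2 CPM in day 5 wild-type libraries, and 6.52 and 6.99 CPM in day 2 knockout and 7.16 and 6.61 CPM in day 2 wild-type libraries. Cldn2 changed by -1.31 ± 0.16 (log2, SE; adjusted p = 1.52e-05). Pancreas genes summed to 6.31 to 11.3 CPM on day 5 and 0.423 to 2.23 CPM on day 2, and 2 of 14 had enough counts to test. Their called member was Cela1, an elastase, with 8.96 and 6.25 CPM in the knockout and 7.23 and 7.45 CPM in the wild type on day 5, against 0.924 and 0.398 CPM in the knockout and 0.758 and 0.902 CPM in the wild type on day 2. Cela1 changed by 3.32 ± 0.21 (log2, SE; adjusted p = 7.41e-08). Adipocyte genes summed to 5.58 to 7.45 CPM on day 5 and 0.622 to 1.01 CPM on day 2. Fabp4, which macrophages and endothelium also make, was the single one tested, with 5.53 and 7.07 CPM in knockout and 7.23 and 5.22 CPM in wild-type libraries on day 5, against 0.761 and 0.473 CPM in knockout and 0.926 and 0.608 CPM in wild-type libraries on day 2. Fabp4 changed by 3.19 ± 0.21 (log2, SE; adjusted p = 6.64e-08). Mesothelial genes summed to 1.78 to 2.10 CPM on day 5 and 4.78 to 6.52 CPM on day 2, with 2 of 2 tested lower, or 1 without replicate 2 of the day 5 wild type, the day 2 knockout or the day 5 knockout. The part of such cells in the results was not tested.

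Further lists gave small or mixed changes, set beside 24% of all tested genes higher and 22% lower. Of 15 autophagy genes 11 were higher and 1 lower, with a median of 0.40. Of 21 ribosome biogenesis genes 1 was higher and 7 lower, with 11 lower without replicate 1 of the day 2 wild type and 12 without replicate 2 of the day 5 wild type. Of 15 p53 targets 1 was higher and 6 lower, with 2 or 3 higher without replicate 1 of the day 2 wild type or either library of the day 5 wild type, and of 13 immediate-early genes 2 were higher and 2 lower, with 6 lower without replicate 1 of the day 2 knockout and 1 without 5 of the other libraries. Of 93 small nucleolar RNAs 14 were lower (15.1%, under the share of all genes) and none higher, and 9 were lower without replicate 2 of the day 2 wild type. Of 234 solute carriers 83 were higher and 59 lower.

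The 2 genotypes were also read apart. In the knockout 3359 genes (18.8%) were higher and 2831 (15.9%) lower, and in the wild type 2959 (16.6%) and 2300 (12.9%). A total of 4330 genes were called in both with the same sign and 2, Gfpt2 and Ide, with opposite signs. Across genes, which are not independent replicates, the knockout and wild-type log2 changes had a Pearson r of 0.888. The difference between the genotypes in this change was called for 0 genes (0%) in edgeR, with 1011 at an unadjusted p under 0.05, and for 28 in DESeq2. A miss of the threshold with 2 libraries a group does not show that the genotypes moved alike.

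**Figure D5:**
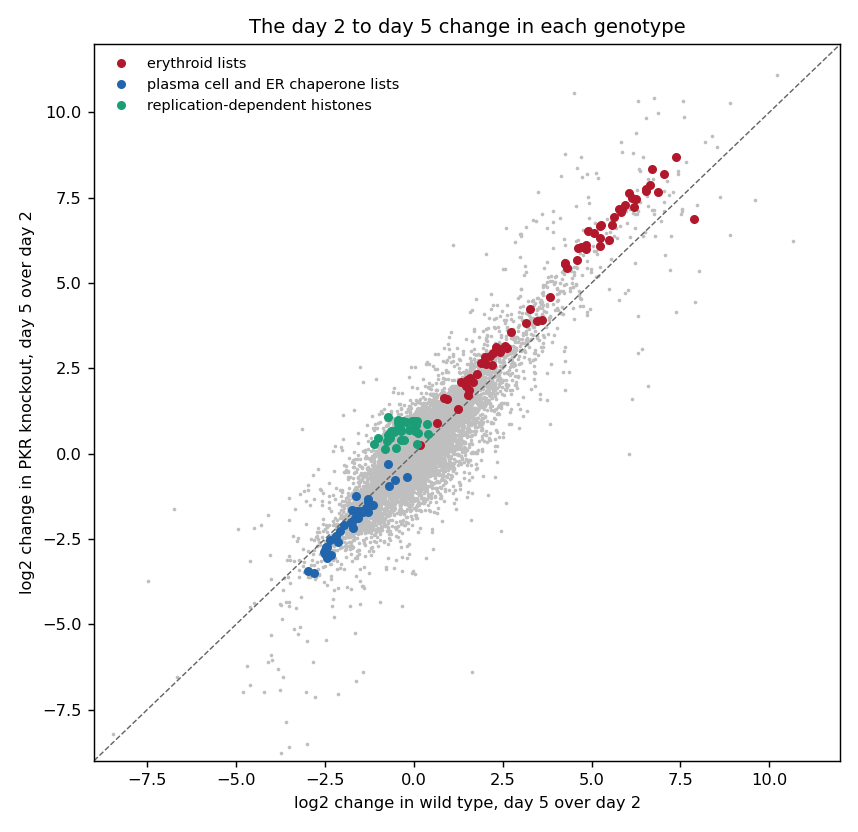
Log2 change between day 5 and day 2 in PKR knockout (vertical) against wild type (horizontal), 1 point per tested gene. The dashed line marks equal change. Erythroid genes (red) lie above the line at the upper right, with list medians of 7.30 in knockout and 6.12 in wild type for globins (6.602 and 6.114 without replicate 1 of the day 2 knockout), and histone genes (green) lie above it near the centre, with medians of 0.66 and -0.36.

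Red cell genes had a larger change in the knockout as measured, with list medians of 6.70 in knockout and 5.48 in wild type for the membrane list and 3.06 and 2.41 for haem synthesis. No member passed the test of the difference, and the smallest adjusted p in the haem list was 0.606. Without replicate 1 of the day 2 knockout the membrane medians were 6.02 and 5.47. On day 5 itself both knockout libraries lay above both wild-type libraries for 57 of the 64 erythroid genes, against 19.1% of all tested genes. The 64 were read in the same pools and may move together, so they are not independent replicates of a genotype. The difference between genotypes on day 5 itself was not tested.

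The replication-dependent histones had medians of 0.66 in knockout and -0.36 in wild type. Over both, 2 of 32 were higher (6.25%, all genes 24%). The count was 1 without replicate 2 of the day 2 wild type, replicate 2 of the day 5 wild type or replicate 1 of the day 5 knockout. H1f1 had 491 and 369.6 CPM in day 5 knockout and 298 and 348 CPM in day 5 wild-type libraries, and 269 and 203 CPM in day 2 knockout and 253 and 247 CPM in day 2 wild-type libraries. H1f1 changed by 0.62 ± 0.14 (log2, SE; adjusted p = 0.00301). Without replicate 1 of the day 2 knockout the medians were 1.17 and -0.37, and the test of the difference called 13 genes, all at an adjusted p of 0.0488. They were the histones H2bc15, H3c10, H4c3, H4c6, Hist1h2bq, Hist1h2br and Hist1h4m, and Dhrs9, Gm43181, Mmp8, Nxpe2, Saa3 and Ttn. These were named after their values were seen. Without replicate 2 of the day 2 knockout in place of replicate 1, the test called 87 genes. In both of these fits the day 2 knockout is 1 library, assumed to vary like the other groups. Histone genes are near copies whose counts may be split unevenly, and they lack poly(A) tails, which this ribosome-depleted library type does not need. In the fit of all 8 libraries, 10 of the histones were higher in the knockout, and none was called in either direction in the wild type. Fits of each genotype alone gave other counts, with 6 higher and none lower in knockout libraries and 2 higher and 17 lower in wild-type libraries.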

How the data were processed

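RNA was read from spleen cells of 16 pools, with ribosomal RNA removed, per the labels' protocols. The submitters' processing notes list HISAT2, TopHat, Trimmomatic and bcl2fastq with no role for each, and the mm10 build. Which program and annotation gave the counts is not stated in any source read here. The authors deposited, per the file headers, fragment counts per transcript, a depth-scaled fragment value treated here as a score and not used in tests, and FPKM. The files hold 142604 transcripts of 55291 gene symbols, and 99.1% of the transcript IDs are in GENCODE M21. A fragment counts in every isoform it overlaps, so 1 transcript was kept per symbol. No column belonged to another series.

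Counts were tested with edgeR 4.0.16 in R 4.3.3 (TMM scaling, filterByExpr, robust quasi-likelihood F test, genotype and day as terms, Benjamini-Hochberg adjustment over all tested genes), and the SE is the log2 change over the square root of F. CPM are counts over the total fragments scaled by TMM, and FPKM as deposited by the authors are used for levels per length. Library totals were 35026754 to 51996700 fragments, and the number of libraries limits the precision. On simulated counts of 17401 genes for the comparison of days, 91% of 2-fold and 98% of 4-fold changes were recovered among 200 changed genes, with 17 false calls. The 200 were drawn from genes above a floor of mean counts, and far more genes, 8197, were called in the data. Recovery at low counts or with so many genes changed was not tested.

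Genes were named by a rule: among called genes with no overlap of days and a mean FPKM of 1 or more, the 12 largest rises and falls without predicted genes, Riken clones, variable segments, pseudogenes and small nucleolar RNAs; up to 3 rises and 3 falls in each list; and a panel. The gene lists, their members and the panel were chosen with earlier results of these data known, while the libraries were chosen by their labels. Genes outside the rule are Ms4a1, Hspa5, Epb42, Ighg1, Ighg3, Igha, members that complete a small count, and genes of the genotype comparison. A few genes that the rule names are not reported here.

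Alternatives were other filters, scalings and transcript choices, DESeq2 1.42.0, limma 3.58.1 on log2 FPKM plus 0.5, all 16 libraries, each genotype alone, a replicate block and leaving out each library. Promoter and microRNA sequences are from RefSeq on GRCm38.p6.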

Additional observations from a re-analysis of the deposited data

Results flagged for a closer look

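Among 300.0 sets of 4 libraries (the genes named, on each day), 15 held a library far from the other 3, with a gap over the range above Dixon's critical value. Chance flags about 1 in 20, and 5.0% were found. In 6 of them the library was replicate 1 of the day 2 knockout: Elane (0.886), Epor (0.83), Gata1 (0.903), Igha (0.851), Mki67 (0.83) and Tmod1 (0.903). On day 2, the others were Erfe in replicate 2 of the wild type (0.853), Il1r2 in replicate 2 of the knockout (0.836) and Siglec1 in replicate 1 of the wild type (0.858). On day 5, they were Hk2 (0.912) and Il1b (0.975) in replicate 1 of the knockout, Gzma (0.887) and Gzmb (0.87) in replicate 1 of the wild type, and Elane (0.881) and Ighg3 (0.881) in replicate 2 of the wild type.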

How the results depend on the processing

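Between day 5 and day 2, leaving out 1 library gave 3764 to 4153 genes higher and 3355 to 3945 lower, and no call changed sign under any alternative. With knockout libraries alone 2721 genes were higher and 2213 lower, and with wild-type libraries alone 3377 and 2875. The test of the difference between genotypes called 0 genes, but 23 higher and 5 lower in the knockout with DESeq2, and 123 and 54 with no filter on low counts. Leaving out 1 library gave 0 to 73 higher and 0 to 14 lower there, the most without replicate 2 of the day 2 knockout, while replicate 1 of the day 5 wild type left out gave 0 and 2 and replicate 1 of the day 2 knockout 8 and 5. The cause was not tested.

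With a replicate block 4224 genes were higher and 3820 lower, and the genotype difference stayed at 0, with 1066 at an unadjusted p under 0.05. Same-numbered libraries had deviations correlated at 0.0605 between wild-type days and 0.0958 between knockout days, and at 0.375 between genotypes on day 2 but -0.221 on day 5. Across both day and genotype the values were -0.176 and -0.0481. These values differed in sign and size between groups, and the numbers were not taken to pair samples. Whether same-numbered libraries of day 2, at 0.375, shared a step was not tested. For single genes, 89 values in 3278 lost the call and 31 gained one; with knockout libraries alone the losses included Hba-a1, Hbb-bs, Slc4a1, Cd3e, Ltf, Ngp, Ly6g, mt-Nd3, Egln3, Nupr1 and Il18. List medians under 0.2 from 0 changed sign in some alternatives (DNA replication, germinal centre, histones, immediate-early, psoriasis and stress erythropoiesis genes). With 2 pools a group, small changes are not resolved.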
